A study of Mus musculus with 6 samples.

Results

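The genes described here are the 4 tissue inhibitors of metalloproteinases (TIMPs) and 6 proteases of the ADAMTS family, 10 of the 45706 genes in the deposited table. They were taken by symbol: Timp1, Timp2, Timp3, Timp4, Adamts1, Adamts2, Adamts4, Adamts5, Adamts9 and Adamts12. The set was chosen by gene family and selected on expression differences between DKK1-treated and control cells that earlier results of these data had shown, so those differences are given as a description and are not independent evidence. The 13 other ADAMTS genes of the list used here were treated as partner genes.

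RNA was sequenced from lung fibroblasts of wild-type mice, grown out of collagenase- and trypsin-digested lungs, in 3 control samples and 3 samples exposed for 24 hours to 30 ng/ml of mouse DKK1, made as a recombinant protein. DKK1 is secreted and inhibits Wnt signalling by occupying the co-receptors LRP5 and LRP6. The labels do not say whether the 3 samples of a group came from separate mice, so p-values measure only the spread between these samples, which may be technical. Age, sex, strain and the method of cell purification are not given in the sources used here.

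TIMPs are small secreted proteins that occupy the catalytic cleft of zinc-dependent proteases and block them. TIMP3 differs from the others in binding to the extracellular matrix and in inhibiting several ADAM and ADAMTS proteases as well as matrix metalloproteinases. ADAMTS proteases are secreted zinc proteases with thrombospondin repeats. Some of them cut large proteoglycans such as versican and aggrecan, some remove the amino-terminal propeptide from procollagens, and fibroblasts are a main source of both families in lung.

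Promoter windows are shown for Timp1 and Timp3, the members called in opposite directions in the unpaired comparison below. The sequences come from RefSeq (GRCm38.p6), plus strand for both genes, and cover the 250 bases before the RefSeq start site, which can differ from the start in the annotation used for gene positions. Capitals mark the GC box, GGGCGG or its complement CCGCCC.
Timp1, chrX:20869916-20870165: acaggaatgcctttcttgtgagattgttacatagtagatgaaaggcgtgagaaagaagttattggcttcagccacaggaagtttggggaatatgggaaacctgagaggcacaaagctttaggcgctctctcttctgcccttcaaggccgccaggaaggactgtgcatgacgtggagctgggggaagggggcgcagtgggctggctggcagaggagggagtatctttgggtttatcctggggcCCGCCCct
Timp3, chr10:86300162-86300411: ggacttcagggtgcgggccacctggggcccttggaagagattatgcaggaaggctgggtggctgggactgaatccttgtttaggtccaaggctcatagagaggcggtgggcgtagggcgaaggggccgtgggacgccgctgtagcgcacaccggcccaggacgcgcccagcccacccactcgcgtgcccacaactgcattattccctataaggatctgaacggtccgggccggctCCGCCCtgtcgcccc

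Windows of 300 bases, from 250 before to 50 after the start, were matched for 8 of the 10 members; Adamts4 and Adamts5 had no match. The Timp1 window had 55.0% G and C and 8 CpG pairs, against 67.0% and 24 CpG pairs for Timp3; the medians over all 32851 windows were 52.7% and 7. Adamts2 had the highest G and C content of the 8, at 77.3% with 41 CpG pairs, above 97.8% of all windows. On both strands, 0 of the 8 member windows held TGANTCA (AP-1), CTTTGAT (TCF/LEF) or TTCNNNGAA (STAT), which were found in 7.81%, 3.73% and 8.30% of all windows. The GC box was found in 6 of the 8, all but Adamts12 and Timp4, against 35.7% of all windows. TATAAA was found in Adamts1 alone of the 8, against 13.6% of all windows. The letters TGAGTAA, a variant of the AP-1 sequence looked for after the Timp1 sequence had been read, were found in Timp1 alone of the 8 and in 2.68% of all windows. In Timp1 they begin 27 bases into the transcribed part, shown here in capitals.
Timp1, chrX:20870183-20870207: gtgggtggaTGAGTAAtgcgtccag
A match of letters is a description and not a binding site, and the absence of one says nothing about the factor.

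The libraries held 22565917 to 34727102 expected counts. Levels of a gene across libraries are given as CPM, counts scaled to the library total. All 8 fibroblast marker genes examined were detected in every library, with a summed level of 9180 to 10700 CPM in control and 8650 to 9980 CPM in DKK1 libraries. Most of that level was Col1a1 and Col1a2, at 5940 and 2950 CPM in control library 1. Dcn, Pdgfra and Tcf21 were higher with DKK1 in all 3 same-numbered pairs. Col1a1, Col1a2, Pdgfrb and Thy1 were lower in all 3, and Lum was mixed. Markers of other lung cells were present at lower levels, and those of macrophages, epithelium, endothelium and mesothelium were highest in replicate 3 of both groups. The 8 macrophage markers summed to 413 to 834 CPM in control and 464 to 886 CPM in DKK1 libraries, the 8 epithelial markers to 41.5 to 127 and 38.9 to 127 CPM, the 6 endothelial markers to 23.8 to 64.4 and 21.7 to 63.0 CPM, and the 4 mesothelial markers to 9.73 to 28.1 and 10.4 to 31.6 CPM. The ranges of these 4 lists overlapped between the groups. Of the 8 macrophage markers, 4 (Adgre1, Marco, Itgam and Lyz2) were higher with DKK1 in all 3 same-numbered pairs, 2 (Csf1r and Mrc1) were lower in all 3, and Cd68 and Ptprc were mixed. Lyz2 made up most of the macrophage sum, at 340, 402 and 696 CPM in control libraries 1 to 3 and 370, 412 and 722 CPM in DKK1 libraries 1 to 3. Marco was at 3.86, 4.74 and 10.6 CPM in control libraries 1 to 3 against 16.5, 14.5 and 29.3 in DKK1 libraries 1 to 3, and Itgam at 11.5, 12.6 and 20.6 against 26.3, 25.0 and 43.2 CPM, both without overlap, whereas Csf1r was at 20.0, 18.5 and 34.7 against 18.7, 16.8 and 25.1 CPM, with overlap. The 5 smooth muscle and pericyte markers summed to 436 to 479 CPM in control and 354 to 384 CPM in DKK1 libraries, without overlap, and were lowest in replicate 3 of both groups. Most of that sum was Myh11, at 335, 338 and 336 CPM in control libraries 1 to 3 against 277, 273 and 273 CPM; Myh11, Des and Cspg4 were lower with DKK1 in all 3 pairs, and Notch3 and Rgs5 were mixed. The part of these cells in the differences below was not tested. In bulk RNA, fewer cells of a type and less RNA per cell cannot be told apart.

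Levels of different genes were compared as TPM, which divide the counts by gene length and then scale each library to the same sum. Over all 6 libraries the order was Timp1 at 1634 ± 214 TPM, Timp2 at 737 ± 77.2, Timp3 at 279.7 ± 24.3, Adamts2 at 153 ± 11.5, Adamts1 at 138 ± 6.27, Adamts5 at 49.8 ± 6.23, Adamts9 at 41.8 ± 3.86, Adamts4 at 39.4 ± 3.40, Adamts12 at 35.1 ± 4.08 and Timp4 at 0.0741 ± 0.0508 TPM (mean ± SD, n = 6). Timp1 stood above 99.2% of the tested genes. The library ranges of Timp1, Timp2, Timp3 and Adamts2 did not overlap from one to the next, nor did those of Adamts1 and Adamts5. Neighbours whose ranges overlapped were Adamts2 with Adamts1, Adamts5 with Adamts9, Adamts9 with Adamts4, and Adamts4 with Adamts12; Adamts12 did not overlap Timp4. With the longest transcript as the length, Adamts9 came before Adamts5 and Adamts12 before Adamts4. The 6 ADAMTS members made up 88.0% ± 0.499 of the summed TPM of the 19 listed ADAMTS genes in control cells and 87.4% ± 0.692 in DKK1-treated cells (SD, n = 3 each).

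**Figure D1:**
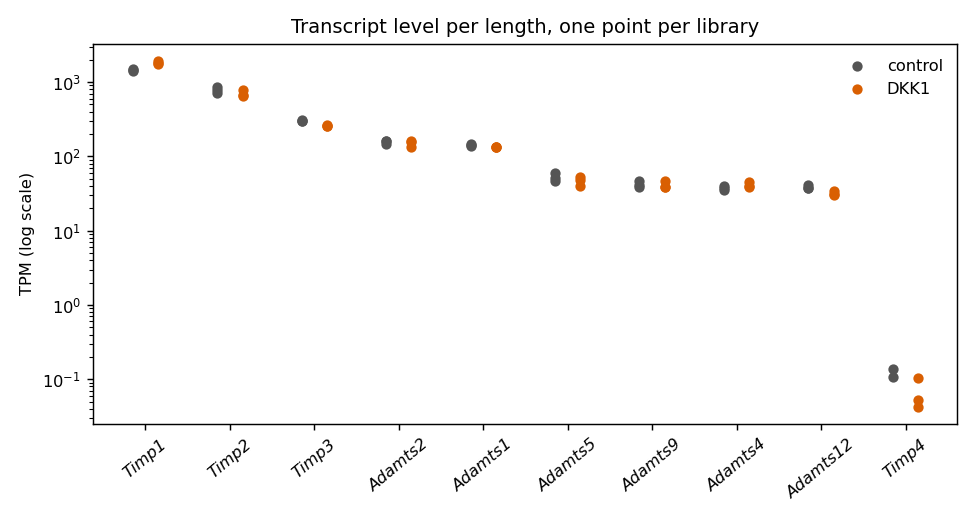
Transcript level per length (TPM, log axis) of the 10 members, one point per library, grey for control and orange for DKK1, ordered by mean level. Timp1 lies highest in all libraries, the 6 ADAMTS members lie between 29.9 and 161.7 TPM, and Timp4 stays under 0.2 TPM; the control library with 0 Timp4 counts cannot be drawn on this axis.

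The 3 abundant TIMP genes differed in direction: Timp1 was higher and Timp3 lower in DKK1-treated cells, and Timp2, with a fitted value below 0 in both fits, was called only with the replicate number as a block. Timp1 (ENSMUSG00000001131, chrX:20870166-20874735, plus strand, GRCm38) encodes a secreted inhibitor of most matrix metalloproteinases. Its level was 342, 367 and 358 CPM in control libraries 1, 2 and 3, and 429, 472 and 451 CPM in DKK1 libraries 1, 2 and 3. The lowest DKK1 library lay above the highest control library. The means were 355 ± 12.7 and 450.5 ± 21.5 CPM (SD, n = 3 each), a fitted log2 fold change of 0.34 (SE 0.05), or 26.3% more. Within the same-numbered pairs the log2 ratios were 0.33, 0.36 and 0.33.

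Timp3 (ENSMUSG00000020044, chr10:86300372-86349506, plus strand) encodes the matrix-bound inhibitor. It was measured at 687, 681 and 670.5 CPM in control libraries 1 to 3 and at 568, 594 and 592 CPM in DKK1 libraries 1 to 3. All 3 DKK1 libraries lay below all 3 control libraries, and the spread within a group was small. The means were 679 ± 8.25 and 585 ± 14.5 CPM (SD, n = 3 each), and the fitted log2 fold change was -0.22 (SE 0.03), or 14.2% less.

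Timp2 (ENSMUSG00000017466, chr11:118301069-118355740, minus strand) encodes an inhibitor that also takes part in the activation of the MMP2 proenzyme at the cell surface. It stood at 829, 915 and 776 CPM in control libraries 1 to 3 and at 692, 837 and 730.1 CPM in DKK1 libraries 1 to 3. The groups overlapped, and replicate 2 was the highest library of both. The log2 fold change was -0.16 (SE 0.08) without and -0.16 (SE 0.03) with the replicate number as a block, and the log2 ratio of each pair was below 0 (-0.26, -0.13 and -0.09).

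Timp4 (ENSMUSG00000030317, chr6:115241892-115252205, minus strand) was close to the detection limit. It had 5, 0 and 4 counts in control libraries 1 to 3 and 2, 6 and 2 counts in DKK1 libraries 1 to 3. A count of 3, the smallest read here as signal, corresponds to 0.0864 to 0.133 CPM in these libraries, so a difference was not detectable at this depth, and the gene did not pass the filter on low counts. Such floors cover counting error only.

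The share of Timp1 in the summed TIMP transcripts, in TPM, was 56.4%, 56.5% and 58.9% in control libraries 1 to 3 and 66.1%, 64.9% and 66.1% in DKK1 libraries 1 to 3. The share of Timp2 went from 30.8% ± 1.55 to 25.0% ± 1.09 and that of Timp3 from 11.9% ± 0.476 to 9.31% ± 0.356 (SD, n = 3 each). The groups did not overlap in the share of any of these 3 genes. These shares are parts of the same sum, so a higher share of Timp1 lowers the others. In CPM the groups overlapped for Timp2. The shares also depend on the length used, here the union of exons. With the longest transcript, mean TPM over all libraries was 1246 for Timp1, 586.5 for Timp2 and 366 for Timp3, which gives other shares. The sum itself was 2527 ± 109 TPM in control and 2774 ± 152 TPM in DKK1-treated cells (SD, n = 3 each), where the lowest DKK1 library, at 2647 TPM, lay below the highest control library, at 2653 TPM.

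**Figure D2:**
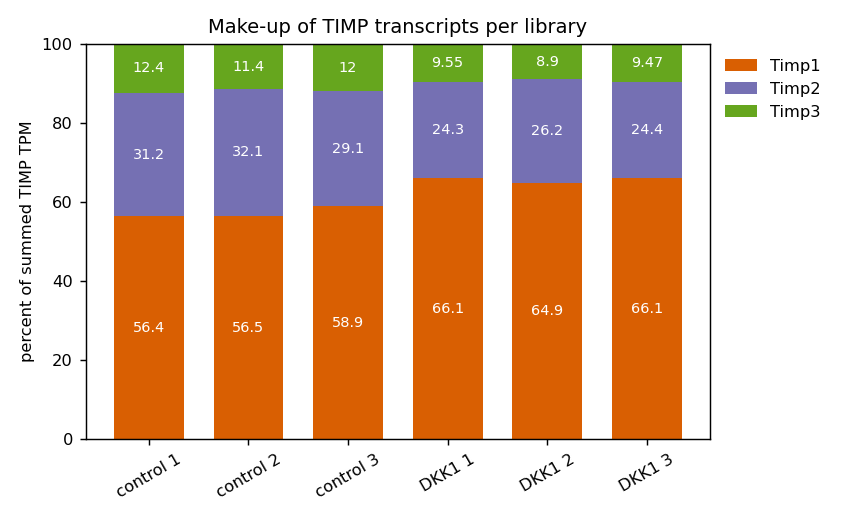
Share of Timp1, Timp2 and Timp3 in the summed TIMP transcripts (percent of TPM) in each library; Timp4 is too low to be seen. Timp1 takes 56.4% to 58.9% in the control libraries and 64.9% to 66.1% in the DKK1 libraries.

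Of the proteases that cut large proteoglycans, Adamts1, Adamts5 and Adamts4 differed between the groups by small amounts that passed the test only with the block, and Adamts9 did not pass it in either fit. Adamts1 (ENSMUSG00000022893, chr16:85793827-85803113, minus strand), a versican-cutting protease, measured 201, 209 and 219.5 CPM in control libraries 1 to 3 and 194, 198 and 200.5 CPM in DKK1 libraries 1 to 3. The groups did not overlap, but the gap between them was under 1 CPM. Its log2 fold change was -0.09 (SE 0.04), and -0.09 (SE 0.02) with the block.

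Adamts5 (ENSMUSG00000022894, chr16:85856173-85901828, minus strand), an aggrecan- and versican-cutting protease, lies 53059 bases from Adamts1 on the same strand. It measured 141, 175 and 153 CPM in control libraries 1 to 3 and 120.2, 160.4 and 146 CPM in DKK1 libraries 1 to 3. The groups overlapped widely, and in both groups replicate 2 was highest and replicate 1 lowest. Its log2 fold change was -0.14 (SE 0.11), and -0.14 (SE 0.03) with the block.

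Adamts4 (ENSMUSG00000006403, chr1:171250421-171260637, plus strand), which also cuts aggrecan and versican, was the only ADAMTS member with a fitted value above 0. It measured 52.3, 46.6 and 50.2 CPM in control libraries 1 to 3 and 60.1, 54.0 and 52.4 CPM in DKK1 libraries 1 to 3. The gap between the highest control and the lowest DKK1 library was under 0.2 CPM, and with composition factors applied the groups overlapped. Its log2 fold change was 0.16 (SE 0.06), and 0.16 (SE 0.04) with the block.

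Adamts9 (ENSMUSG00000030022, chr6:92772699-92943492, minus strand), a versican-cutting protease, measured 192, 161 and 172 CPM in control libraries 1 to 3 and 194, 161 and 166 CPM in DKK1 libraries 1 to 3. The libraries followed the replicate number and not the treatment, with replicate 1 highest in both groups. Its log2 fold change was -0.02 (SE 0.08 without and 0.02 with the block), and its sign changed in 5 of the 20 alternatives run.

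Adamts2 and Adamts12 act on other substrates. Adamts2 (ENSMUSG00000036545, chr11:50602084-50807573, plus strand), which removes the amino-terminal propeptide of fibrillar procollagens, was the most abundant ADAMTS member. It measured 416, 412 and 380.2 CPM in control libraries 1 to 3 and 415, 409 and 349 CPM in DKK1 libraries 1 to 3. Replicate 3 was the lowest library in both groups, and the log2 fold change was -0.05 (SE 0.07 without and 0.02 with the block). Without DKK1 replicate 3 it was 0.03.

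Adamts12 (ENSMUSG00000047497, chr15:11064790-11349231, plus strand), which cuts cartilage oligomeric matrix protein, showed the largest lower value of the members. It measured 122, 112 and 114 CPM in control libraries 1 to 3 and 103, 90.8 and 95.8 CPM in DKK1 libraries 1 to 3. All DKK1 libraries lay below all control libraries. The means were 116 ± 5.73 and 96.6 ± 6.19 CPM (SD, n = 3 each), and the log2 fold change was -0.27 (SE 0.06), and -0.27 (SE 0.03) with the block, or 17.0% less in the fit without it. In edgeR it passed the threshold with the block and not without it; without the block it was also called by DESeq2 and by edgeR with no low-count filter, where it was the third member called.

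**Figure D3:**
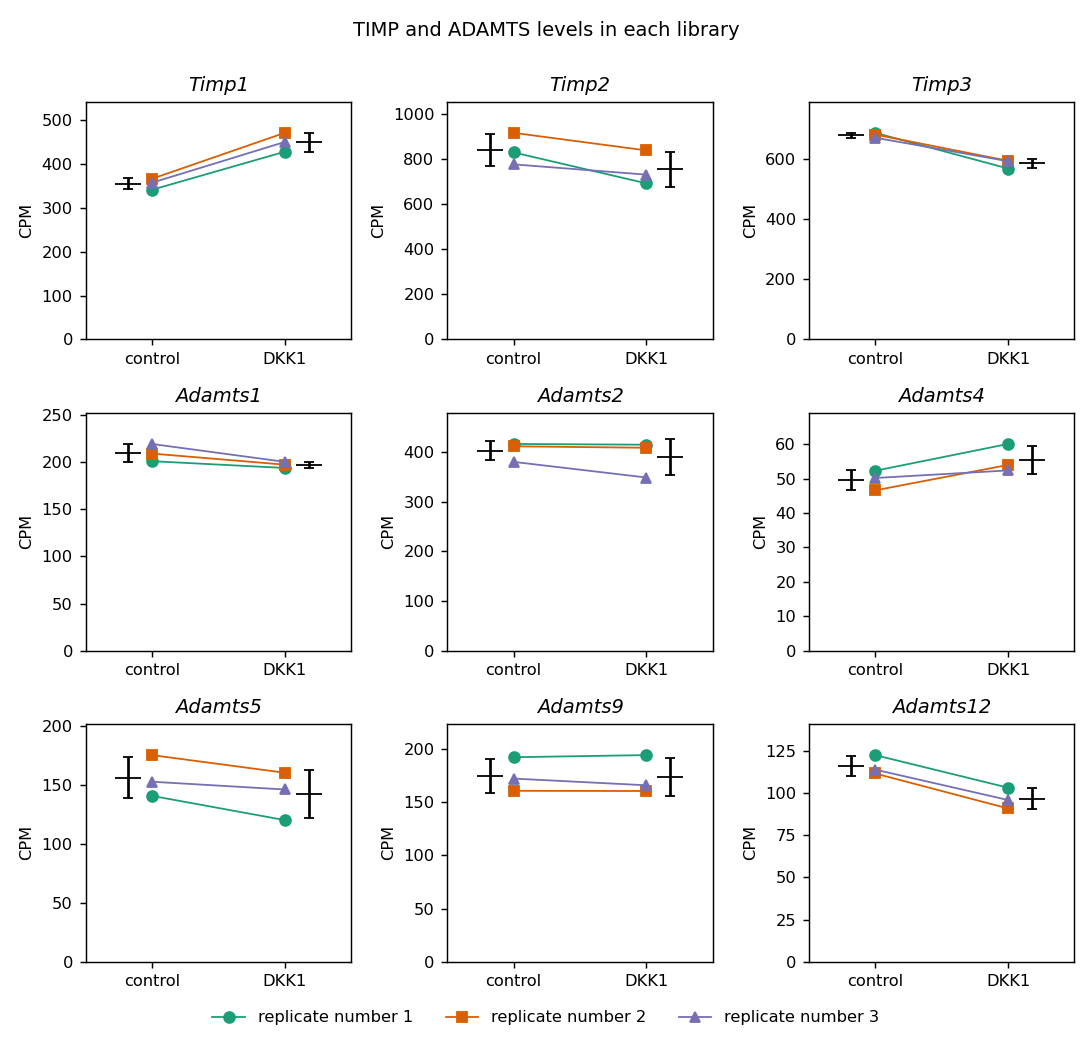
CPM of the 9 tested members in each library, all axes from 0; coloured lines join samples with the same replicate number, and black marks give mean ± SD (n = 3) per group. Timp1 lies higher and Timp3 and Adamts12 lower in all 3 DKK1 libraries, whereas Adamts5 and Adamts9 separate by replicate number.

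Calls come from 1 fit over all 14635 tested genes (edgeR's quasi-likelihood test), with a Benjamini-Hochberg adjusted p under 0.05 as the threshold. Of the 9 members tested, 2 were called, Timp1 higher and Timp3 lower, against 0.895% of all tested genes (0.697% higher and 0.198% lower). With the replicate number as a block, 7 were called, Timp1 and Adamts4 higher and Timp2, Timp3, Adamts1, Adamts5 and Adamts12 lower, against 9.42% of all tested genes (4.96% higher and 4.46% lower). The groups did not overlap in CPM for 5 of the 9 members (Timp1, Timp3, Adamts1, Adamts4 and Adamts12), against 16.5% of all tested genes. Of these 5, 2 were higher and 3 lower, against 9.4% and 7.14% of all tested genes. The median log2 fold change was -0.09 over the 9 members and -0.001 over all tested genes. Because the members were chosen with this comparison known, nothing is read from these counts beyond the values themselves.

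The call of Timp1 was lost without control replicate 1 (log2 fold change 0.31), control replicate 2 (0.36) or DKK1 replicate 2 (0.298), and when replicate 3 of both groups was left out (0.34). That of Timp3 was lost without control replicate 1 (-0.21), control replicate 2 (-0.22), DKK1 replicate 1 (-0.20) or DKK1 replicate 2 (-0.24). Under the block, Timp1, Timp2, Timp3 and Adamts12 were called in all 6 fits run, with edgeR, DESeq2 or limma-voom and with each pair left out of the edgeR fit. Adamts5 was called in 4 of those 6, and Adamts1 and Adamts4 in 3 each, not among them DESeq2.

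**Figure D4:**
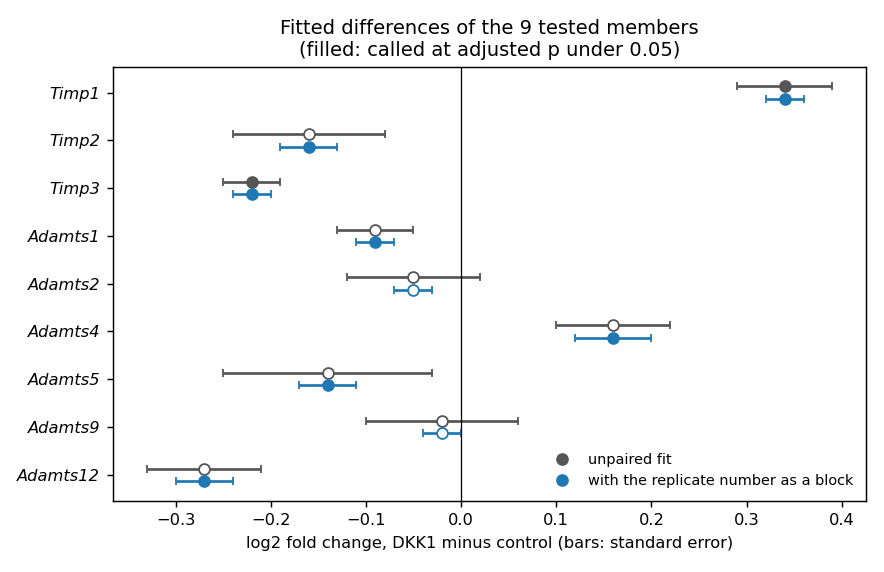
Fitted log2 fold change (DKK1 minus control) of the 9 tested members with its standard error, grey without and blue with the replicate number as a block; filled points were called. Each pair of points lies at the same value, and the bars are shorter with the block for each gene.

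Timp1, Timp3 and Timp4 each lie inside a synapsin gene on the opposite strand (Syn1, Syn3 and Syn2), and the strandedness of the counting is not given in the sources used here. Syn1 averaged 7.79 ± 1.13 CPM in the control libraries and 6.99 ± 1.49 CPM with DKK1, and Syn3 at 2.42 ± 0.250 and 2.58 ± 0.488 CPM (SD, n = 3 each), far below Timp1 and Timp3. The exons of Timp1 and Syn1 share 0 annotated bases and those of Timp3 and Syn3 share 1733, and the expected counts of Timp3 had fractions in all 6 libraries. Adamts9 shares 1381 exonic bases with A730049H05Rik on the opposite strand, which was at 8.72 ± 1.27 and 14.8 ± 3.65 CPM, and its counts had fractions in all 6 libraries too.

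Partner genes were taken from 6 lists put together by function, with earlier results of these data known, 73 genes of which 63 were tested. In the fit without the block 2 were called, both higher: Vcan, which encodes versican, the large proteoglycan cut by ADAMTS1, ADAMTS4, ADAMTS5 and ADAMTS9, and Mmp3, which encodes the metalloproteinase stromelysin. These 2 of 63 stand beside 0.895% of all tested genes. With the block 30 of the 63 were called, 16 higher and 14 lower, beside 9.42% of all tested genes (4.96% higher and 4.46% lower). The median log2 fold change of the 63 genes was 0.01, against -0.001 for all tested genes. Of the 21 partner genes named by the rule and called with the block only, 13 were called in all 6 fits with the block; the others were Adamts15, Adamtsl3 and Adamtsl5 (3 of 6 each), Bgn (4), Col1a1, Col5a2 and Mmp14 (5 each) and Pcsk6 (2).

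Vcan measured 312, 321 and 305 CPM in control libraries 1 to 3 and 476, 454 and 396 CPM in DKK1 libraries 1 to 3, with no overlap. The fit gave a log2 fold change of 0.50 with SE 0.07 (adjusted p = 0.014 in edgeR). The call was lost without control replicate 1 (0.50), control replicate 2 (0.52), DKK1 replicate 1 (0.44) or DKK1 replicate 2 (0.47). Of the 10 proteoglycans and glycoproteins cut by ADAMTS proteases, 1 was called without and 5 with the block, 3 higher and 2 lower, with a median log2 fold change of -0.12 over the list. With the block, Dcn, a gene of the fibroblast marker list that encodes decorin, was called higher (0.62, SE 0.06, edgeR adjusted p = 9.73e-06, and without it 0.60, SE 0.12, adjusted p = 0.0791). The markers of that list went in both directions, as given above. Without the block, Dcn was also called by DESeq2 (adjusted p = 9.11e-05) by edgeR with no low-count filter (0.000696) and by edgeR with replicate 3 of both groups left out (0.0369), and not by limma-voom. Nid1 and Nid2, which encode the basement membrane linkers nidogen-1 and nidogen-2, were called in opposite directions with the block, at -0.17 (SE 0.02, edgeR adjusted p = 2.73e-05) and 0.20 (SE 0.03, adjusted p = 0.00182). Neither was called without the block (adjusted p = 0.248 and 0.317). Bgn, which encodes biglycan and was the most abundant of the list at 2167 TPM in control and 2054 TPM in DKK1-treated cells, was called lower with the block only (-0.07, SE 0.02, edgeR adjusted p = 0.00827; without the block 0.72).

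Of the 21 metalloproteinases that TIMPs can inhibit, 19 were tested, 1 was called without and 9 with the block, 7 higher and 2 lower. DESeq2 without the block called 2, Mmp3 and Mmp8, and limma-voom called Mmp3. The median log2 fold change of the list was 0.08. Mmp3 measured 19.9, 17.1 and 15.3 CPM in control libraries 1 to 3 and 47.3, 37.2 and 34.3 CPM in DKK1 libraries 1 to 3, without overlap. The fit gave 1.18 on the log2 scale with SE 0.13 (adjusted p = 0.00742 in edgeR). Its call was lost without control replicate 2 (1.17). With the block, the collagenase genes Mmp8 and Mmp13 and the gelatinase gene Mmp9 were called higher. Mmp8 stood at 0.87 on the log2 scale with SE 0.04 (adjusted p in edgeR = 2.62e-08 with and 0.0869 without the block; without the block, 0.0499 in DESeq2 and 0.000494 in edgeR with no low-count filter) and Mmp13 one of 0.66 (SE 0.04, adjusted p = 2.52e-07 with and 0.385 without it).

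Mmp9 stood at 1.33 on the log2 scale with SE 0.11 (adjusted p in edgeR = 4.94e-06 with and 0.481 without the block). Its level was highest in replicate 3, 14.9 CPM for the control and 30.5 CPM for the DKK1 library, the same 2 libraries in which the macrophage markers summed to 834 and 886 CPM against 413 to 506 CPM in the others. Most of those sums was Lyz2, at 696 and 722 CPM in these 2 libraries, and the other macrophage markers were also highest in replicate 3 of both groups. Without the block, the value of Mmp9 was 2.19 without control replicate 3 and 0.69 without DKK1 replicate 3. With replicate 3 of both groups left out it was 1.63 (adjusted p in edgeR = 0.00821 without the block). Macrophages express Mmp9, and the part of those cells in its level was not tested. Mmp12, named after its values were seen, stood at 1.33 with the block (SE 0.12, edgeR adjusted p = 7.56e-06 with and 0.288 without it). It had 25.0, 38.7 and 88.4 CPM in control libraries 1 to 3 and 103.6, 89.6 and 178.2 CPM in DKK1 libraries 1 to 3. The groups did not overlap, and Mmp12 too was highest in replicate 3 of both. The part of macrophages in its level was not tested. Mmp14, a membrane-anchored metalloproteinase and the most abundant of the list at 365 TPM in control and 338 TPM in DKK1-treated cells, was lower with the block only (-0.11, SE 0.02, edgeR adjusted p = 0.00195; without the block 0.191). Mmp10, next in mean TPM over all 6 libraries, was higher with the block only (0.34, SE 0.05, edgeR adjusted p = 0.000204; without it 0.76). The summed level of the 21 genes was 1142 ± 61.8 TPM in control and 1316 ± 109 TPM in DKK1-treated cells (SD, n = 3 each).

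Of the 13 other ADAMTS genes 7 were tested. Without the block 0 passed in edgeR, DESeq2 called 1, Adamts7, and limma-voom 0. In edgeR 3 had an unadjusted p under 0.05, against 1544 of all 14635 tested genes. With the block 4 passed in edgeR, 3 higher and 1 lower. The median log2 fold change of the 7 was 0.26. Adamts7, the closest relative of Adamts12, had 14.9, 14.4 and 15.9 CPM in control libraries 1 to 3 and 22.1, 18.3 and 19.8 CPM in DKK1 libraries 1 to 3, without overlap. With the block it stood at 0.40 on the log2 scale with SE 0.07 (adjusted p in edgeR = 0.00137), and without the block at 0.41 with SE 0.08 (adjusted p = 0.0743; 0.0199 in DESeq2 and 0.0118 in edgeR with no low-count filter). Adamts7 and Adamts12 thus had fitted values of opposite sign; the difference between them was not tested. Adamts10, which binds fibrillin microfibrils and was the most abundant of the 13 at 33.2 TPM in control and 28.4 TPM in DKK1-treated cells, was called lower with the block (-0.22, SE 0.03, edgeR adjusted p = 0.000791; without it 0.3). Adamts15 was called higher with the block only (0.50, SE 0.11, edgeR adjusted p = 0.0111; without it 0.666), with groups that overlapped. That call was lost in DESeq2 with the block (adjusted p = 0.326) and with pair 1 (0.0536) or pair 2 (0.156) left out. Adamts3, a relative of Adamts2 named after its values were seen, had 0.92 to 1.42 CPM in control and 2.08 to 2.62 CPM in DKK1 libraries (0.91 on the log2 scale with SE 0.21, adjusted p in edgeR = 0.014 with the block and 0.151 without it, called in 4 of the 6 fits with the block).

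The 10 procollagens and genes of procollagen processing were all tested. Propeptides of the procollagens are the substrate of Adamts2, whereas Bmp1, Tll1, Pcolce and Pcolce2 are the genes of processing. Without the block 0 passed in edgeR, DESeq2 or limma-voom. In edgeR 0 had an unadjusted p under 0.05, against 1544 of all 14635 tested genes. With the block 7 passed in edgeR, 1 higher and 6 lower. The 1 higher was Pcolce2, and Pcolce was among the 6 lower. The list had a median log2 fold change of -0.08. Col1a1, Col1a2 and Col5a1 were called lower with the block by small amounts, at -0.10 (edgeR adjusted p = 0.00107), -0.13 (adjusted p = 0.000123) and -0.13 (adjusted p = 0.000223), with SE 0.02 each. Without the block their adjusted p-values were 0.617, 0.707 and 0.644, and their groups overlapped. Col5a2, second in level to Col1a1 at 1218 TPM in control and 1158 TPM in DKK1-treated cells, was lower with the block only (-0.07, SE 0.02, edgeR adjusted p = 0.0233; without it 0.726).

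**Figure D5:**
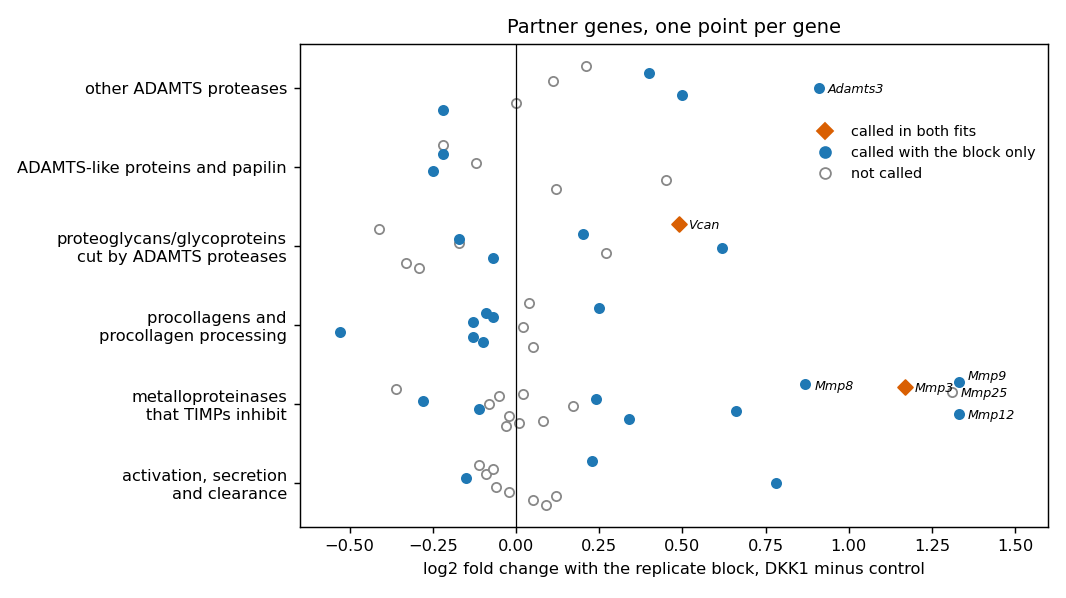
Log2 fold change with the replicate block (DKK1 minus control) of the 63 tested partner genes, one point per gene, by list. Vcan and Mmp3 (diamonds) were called in both fits, filled circles with the block only, and the genes with names lie above 0.8 or were called in both fits, so that Mmp12 and Mmp25 are named for their values.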

How the data were processed

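Expected counts per gene were deposited by the authors for 6 samples, with no scaling (9.62% to 10.6% of the values per sample were not whole). STAR, RSEM, edgeR 4.2.1 and the builds GRCm38 and mm10 are named in the submitters' processing notes; the annotation release and strandedness are not given in the sources used here. Symbols matched 98.8% of the gene identifiers, and positions and lengths came from GENCODE M21 (GRCm38), which holds 98.7% of the transcript identifiers. After rounding, the test was edgeR 4.0.16 under R 4.3.3 (filterByExpr with a minimum count of 10, TMM factors, glmQLFit and glmQLFTest, two-sided, group as the only term, Benjamini-Hochberg adjustment over 14635 genes). It was also run on simulated counts that held no replicate effect. Those cannot check how the block handles such an effect, and no result of them is used here. The SE was derived from the fold change and the F statistic (|log2 fold change| / sqrt F). CPM use the library total, TPM the union of exons. Libraries held 22565917 to 34727102 counts; members other than Timp4 had 1138 to 29082 counts per library.

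Replicate numbers come from the titles, which do not say what they stand for. Samples with the same number deviated together from their group means (correlations across genes of 0.274, 0.23 and 0.405), so the fit with the number as a block is given wherever it changed a call; the biological coefficient of variation was 6.99% without and 2.3% with it. Alternatives were DESeq2 1.42.0 (also its size factors alone), limma-voom (limma 3.58.1), library totals, other low-count filters, unrounded counts, and leaving out each sample. Those added after seeing the data were the block in DESeq2 and limma-voom and leaving out same-numbered pairs.

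The members and the partner lists were chosen with earlier results of these data known. Partner genes were named by a rule: those called, up to 3 called with the block only by smallest adjusted p, and the 2 with the highest TPM of each list. The lists were other ADAMTS proteases, ADAMTS-like proteins and papilin, proteoglycans and glycoproteins cut by ADAMTS proteases, procollagens and their processing, metalloproteinases that TIMPs inhibit, and genes of activation, secretion and clearance. Motifs were searched on both strands; those printed may overlap each other.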

Additional observations from a re-analysis of the deposited data

How the results depend on the processing

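The count of calls over all genes, 131 without the replicate block, was 1379 with it, 329 with no low-count filter and 291 with DESeq2, and with the block 551 in DESeq2, 1391 in limma-voom and 1312, 612 and 1059 without pair 1, 2 or 3. The count of called members, 2, was 7 with the block in edgeR and in limma-voom, 4 with it in DESeq2, 6, 4 and 6 with it without pair 1, 2 or 3, and 1 without replicate 3 of both groups. The count of called partner genes, 2, was 30 with the block in edgeR and in limma-voom, 21 with it in DESeq2, 28, 18 and 27 with it without pair 1, 2 or 3, 8 with no low-count filter, 6 with DESeq2 and 5 without replicate 3 of both groups. Leaving out 1 sample gave 36 to 139 calls over all genes, 0 to 2 members (0 without control replicate 1, control replicate 2 or DKK1 replicate 2) and 0 to 5 partner genes. Other scalings, filters, unrounded counts and limma-voom without the block called 2 members and 2 partner genes, and DESeq2 and no low-count filter called 3 members. The cause of these differences was not tested.

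The sign of Adamts9 changed to 0.00119 without replicate 3 of both groups and to 0.000146 with the block and pair 3 left out. Without the block, leaving out 1 sample moved the log2 fold change of 20 of 35 genes (the 9 tested members and the 26 partner genes named by the rule) by over 1.5 times, none of them called in that fit. It turned the sign in 4, with ranges of -0.107 to 0.0567 for Adamts9, -0.0942 to 0.0296 for Adamts2, -0.594 to 0.0692 for Adamtsl3 and -0.102 to 0.0215 for Lrp1. Among the other members it gave -0.251 to -0.094 for Timp2 (over 1.5 times without control replicate 2, DKK1 replicate 1 or DKK1 replicate 2), -0.243 to -0.0343 for Adamts5 (the same 3 libraries) and 0.0927 to 0.196 for Adamts4 (DKK1 replicate 1). Among the metalloproteinases it gave 0.69 to 2.19 for Mmp9 (control replicate 3, DKK1 replicate 3), 0.0118 to 0.719 for Mmp10 (all but DKK1 replicate 3) and 0.384 to 0.966 for Mmp13 (DKK1 replicate 1). The rest were Adamts15, Adamtsl4, Adamtsl5, Nid2, Bgn, Col1a1, Col1a2, Col5a1, Col5a2 and Pcsk6, with no change of sign. With the longest transcript as the length, mean TPM moved to 1246 for Timp1, 586.5 for Timp2, 366 for Timp3, 114 for Adamts1, 37.8 for Adamts5, 32.7 for Adamts4 and 59.4 for Adamts9, by construction of the length. At this depth Timp4 could not be compared.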

Other observations

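The activation, secretion and clearance of these proteins involve other genes, of which 12 were listed and 11 tested. Without the block 0 passed in edgeR, DESeq2 called 1, Pcsk5, and limma-voom 0. In edgeR 3 had an unadjusted p under 0.05, against 1544 of all 14635 tested genes. With the block 3 passed in edgeR, 2 higher and 1 lower. Sdc4, which encodes syndecan-4, a cell surface proteoglycan, stood at 0.23 on the log2 scale with SE 0.03 (adjusted p in edgeR = 8.04e-05 with and 0.238 without the block). Pcsk5, which encodes a proprotein convertase, measured 7.05, 6.30 and 9.71 CPM in control libraries 1 to 3 and 14.4, 10.8 and 14.4 CPM in DKK1 libraries 1 to 3, without overlap. Both fits gave 0.78 on the log2 scale, with SE 0.09 under the block (adjusted p in edgeR = 0.000105) and 0.17 otherwise (adjusted p = 0.105). Pcsk6, another convertase, was at -0.15 (SE 0.04, edgeR adjusted p = 0.0499 with and 0.394 without the block), a call that was lost in DESeq2 with the block (adjusted p = 0.611) and with pair 1 (0.34), pair 2 (0.173) or pair 3 (0.0525) left out. Cd63, which encodes a tetraspanin that binds TIMP1, was the most abundant of the list at 588 TPM in control and 606 TPM in DKK1-treated cells and was not called in either fit (edgeR adjusted p = 0.634 without and 0.15 with the block). Lrp1, which encodes an endocytic receptor that takes up TIMP3 and ADAMTS proteases, was next at 467 and 449.5 TPM and was not called in either fit (edgeR adjusted p = 0.85 and 0.255).

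Of the 7 genes of ADAMTS-like proteins and papilin, which carry the ancillary domains without the protease, 6 were tested. Without the block 0 passed in edgeR, DESeq2 or limma-voom. In edgeR 0 had an unadjusted p under 0.05, against 1544 of all 14635 tested genes. With the block 2 were lower in edgeR: Adamtsl3 (log2 fold change -0.25, SE 0.05, edgeR adjusted p = 0.00768 with and 0.839 without the block) and Adamtsl5 (-0.22, SE 0.06, adjusted p = 0.0435 with and 0.596 without it). Both calls were lost in DESeq2 with the block (adjusted p = 0.262 and 0.673) and with pair 2 left out (0.105 and 0.162), that of Adamtsl3 also without pair 3 (0.0576) and that of Adamtsl5 without pair 1 (0.35). Adamtsl4, the most abundant of the list at 21.4 TPM in control and 19.7 TPM in DKK1-treated cells, was called in neither fit (edgeR adjusted p = 0.651 and 0.193).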
